A study of Mus musculus with 6 samples.

Results

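The Fer gene gave 8 of the 3869 circular RNAs (circRNAs) listed for mouse brown preadipocytes in adipogenic culture. A circRNA counted as a Fer circRNA when both of its ends lay inside an interval of chromosome 17 (mm9, plus strand) that holds the Fer gene. Being listed is itself a readout, since each row of the table had reads in the 2 libraries of some day, and Fer was picked with its values known. Levels, shares and shared sites are therefore given as descriptions. Primary cells of the stromal vascular fraction came from 6-week-old C57BL/6 mice, from a depot that the labels call inguinal BAT. Day 0 cells were proliferating and not yet induced, day 4 cells had received insulin, dexamethasone and 3-isobutyl-methylxanthine, and day 8 cells had then received insulin and T3 (the thyroid hormone triiodothyronine) for another 4 days. Each day had 2 libraries, and whether these were separate cultures or animals is not in the labels, so p-values measure a spread that may be technical. The identity of the cells was not tested here, because the table pairs no circRNA with a marker gene.

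Fer is a cytoplasmic tyrosine kinase of the FES/FER family. Its protein carries, from the amino end, an F-BAR domain that binds membranes, an SH2 domain that binds phosphotyrosine, and the kinase domain. It is found in most tissues and is known for work on cell adhesion and the actin cytoskeleton, with cortactin and p120 catenin among its substrates. A shorter form, FerT, which lacks the F-BAR part and was described in testis, starts from its own promoter inside the gene. A circRNA forms when the splice donor at the end of a downstream exon is joined back to the acceptor at the start of an upstream exon, and the closed ring resists the exonucleases that remove linear RNA.

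The spacing of the back-splice sites identified the exons. The 8 circRNAs used 5 starts and 4 ends, 9 sites in all. No mm9 annotation was used here, so no coordinate was converted, and only distances were compared with an annotation of another build (GENCODE M21, GRCm38). A single constant shift placed all 9 sites on exon edges of Fer (starts on exon starts, ends on exon ends), and no other shift did. Among the 27757 plus-strand genes compared in the same way, the best match of any other gene was 2 of 9 sites. Exons are numbered here as in the transcript Fer-201, which has 18 exons and encodes 823 codons.

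All but 1 of the circRNAs came from the middle of the gene. Exons 4 to 8 and 15 to 18 of Fer-201 lay inside no listed circRNA. The most abundant, mmu_circ_0006919 (chr17:64378639-64387013), joined the end of exon 14 to the start of exon 12. The circRNA mmu_circ_0006917 (chr17:64340943-64387013) ran from exon 11 to exon 14, mmu_circ_0006915 (chr17:64322414-64341065) from exon 9 to exon 11, and mmu_circ_0006916 (chr17:64322414-64387013) from exon 9 to exon 14. A circRNA with no circBase identifier (chr17:64340943-64378695) ran from exon 11 to exon 12 and is called the exon 11 to 12 circRNA below. Exons 9 to 14 hold codons 413 to 643. The circRNA mmu_circ_0006905 (chr17:64245367-64260913) lay apart from the others and joined exon 3 to exon 1, the exon with the start codon. Its start lay 4 bases upstream of the Fer-201 exon 1, on the edge that the same exon has in the transcripts Fer-203 and Fer-204.

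The remaining pair began at an exon that Fer-201 does not have. The starts of mmu_circ_0006913 (chr17:64306474-64341065) and mmu_circ_0006914 (chr17:64306474-64387013) fell on the start of exon 4 of Fer-202, which 1 of the 5 annotated Fer transcripts contains. This exon is 193 nt long, with the first 43 codons of the Fer-202 reading frame in its last 129 nt. Fer-202 begins at a first exon of its own inside the gene, as described for FerT, and whether it is the FerT transcript was not tested here. In the circRNAs the exon was joined to the end of exon 11 or exon 14, and the junctions do not show which linear transcript they came from.

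**Figure D1:**
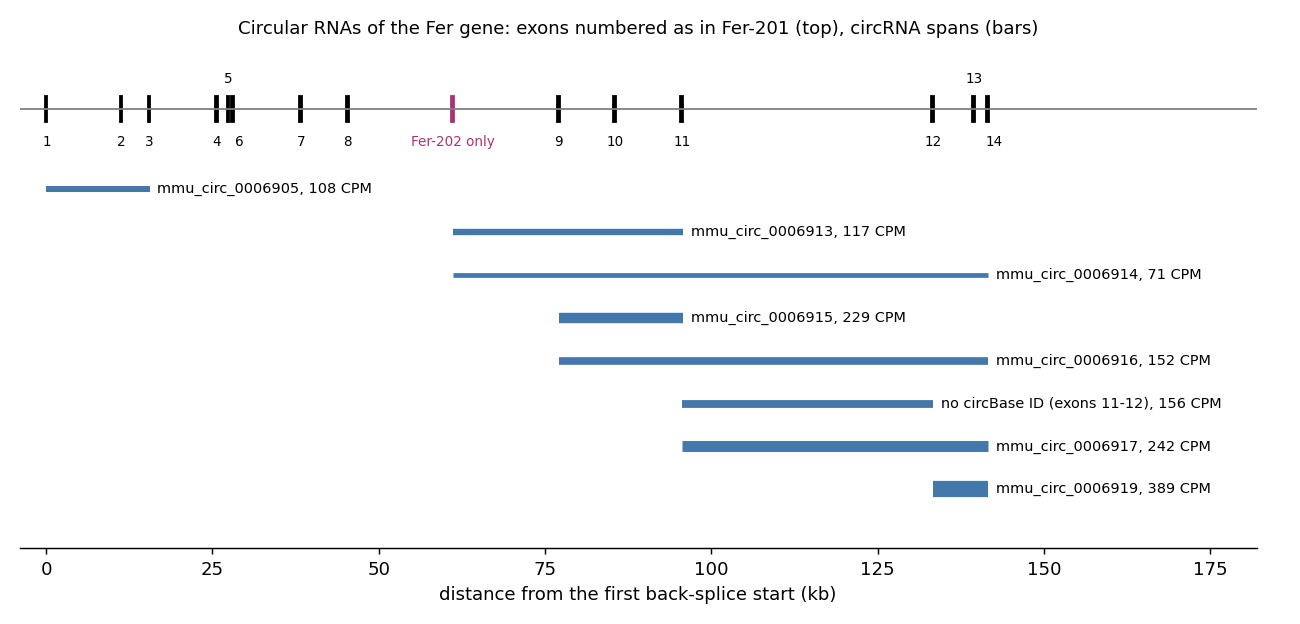
Map of the Fer circRNAs. The x axis is the distance in kb from the first back-splice start, the marks on the line are exons numbered as in Fer-201 (purple for the exon found only in Fer-202), and each bar spans 1 circRNA with a thickness that grows with its mean CPM over 6 libraries. The end of exon 14 closes 4 of the 8 circRNAs, and mmu_circ_0006905 at the left overlaps none of the others.

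The junction sequences below show how sites were shared, with the last 20 bases of the donor exon in lower case and the first 20 bases of the acceptor exon in capitals. They were assembled from the GENCODE M21 sequence of Fer-201 by exon order and were not read in the libraries. Junctions that take in the untranslated part of exon 1 or of the Fer-202 exon are not printed.
mmu_circ_0006919: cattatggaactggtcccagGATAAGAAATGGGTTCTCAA
mmu_circ_0006917: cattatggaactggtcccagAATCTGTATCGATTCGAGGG
mmu_circ_0006916: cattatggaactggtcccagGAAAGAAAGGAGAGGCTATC
mmu_circ_0006915: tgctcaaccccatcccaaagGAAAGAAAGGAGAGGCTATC
exon 11 to 12 circRNA: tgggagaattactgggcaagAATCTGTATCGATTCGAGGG
The first 3 lines share the exon 14 donor bases and differ in the acceptor bases. The exon 9 acceptor appears in mmu_circ_0006916 and mmu_circ_0006915 and the exon 11 acceptor in mmu_circ_0006917 and the exon 11 to 12 circRNA.

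Most Fer circRNAs shared a back-splice site with another. Of the 8 circRNAs, 6 shared their start with another, 6 shared their end, and 5 shared both, against 27.9%, 30.4% and 9.36% of all listed circRNAs. The end of exon 14 (position 64387013) closed 4 circRNAs, a number reached by 21 of the 3205 ends in the table (0.655%). Both backgrounds include circRNAs that overlap no other and so can share no site. Neither was computed among loci with as many circRNAs as Fer. The end of exon 11 (position 64341065) closed 2, and the starts of the Fer-202 exon, exon 9 and exon 11 opened 2 each. Among the 7 overlapping circRNAs, the sites in use allowed 11 pairs of a start with a later end, of which 7 were listed. The 4 that were not listed were single rings of exon 11 or of exon 12 and the rings that would join the end of exon 12 to exon 9 or to the Fer-202 exon. Unlisted rings may have had reads too few to enter the table.

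The rings were long in genomic terms and short in exon sequence. Genomic spans ran from 8375 bp for mmu_circ_0006919 to 80540 bp for mmu_circ_0006914, with a median of 36172.5 bp against 7871 bp for the table, where 9.82% of circRNAs exceeded the Fer median. If every exon of the transcript between the ends is kept, which the table does not measure, the exon 11 to 12 circRNA holds 180 nt and mmu_circ_0006919 holds 268 nt. On the same assumption mmu_circ_0006917 holds 391 nt, mmu_circ_0006915 holds 423 nt, mmu_circ_0006905 holds 540 nt (with the 4 bases before the Fer-201 exon 1) and mmu_circ_0006916 holds 691 nt. The rings from the Fer-202 exon hold 613 nt for mmu_circ_0006913 and 881 nt for mmu_circ_0006914, counted along Fer-202, in which exon 10 is 204 nt instead of the 207 nt of Fer-201. The lengths of the exon 11 to 12 circRNA, mmu_circ_0006915 and mmu_circ_0006905 are multiples of 3. Long introns bordered several of the sites in the GRCm38 annotation. The intron after exon 14 is 41187 bp, the intron after exon 11 is 37573 bp and the intron before exon 9 is 31584 bp, against a median of 8322 bp over the 17 introns of Fer-201. The introns before exon 11 (9907 bp), after exon 12 (6100 bp) and after exon 3 (10048 bp) are of ordinary length for the gene. The longest intron of Fer-201, after exon 15 (54465 bp), borders none of the sites.

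Values are CPM (read counts scaled to the same total in every library) over the listed circRNAs, deposited by the authors. They lie on a grid from which reads can be inferred, with 21.9 to 24.8 CPM a read and 40384 to 45733 inferred reads a library. The Fer circRNAs held 372 inferred reads in all, between 18 for mmu_circ_0006914 and 99 for mmu_circ_0006919, so counting error is large for every value given here. The smallest entry above 0 is 2 reads, and an entry of 0 may hide 1 read. By mean CPM, 7 of the 8 lay above the table's median of 103 CPM, with mmu_circ_0006919 (389 CPM) at the 86.3rd percentile and mmu_circ_0006914 (71.1 CPM) at the 34.7th. A circBase identifier was given for 7 of the 8, against 63.1% of the table. Only 3 of the 8 were above 0 in all 6 libraries, as were 32.3% of all circRNAs, while 4 were above 0 in 5 libraries and 1 in 4.

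No single circRNA dominated. In order of mean CPM, mmu_circ_0006919 was followed by mmu_circ_0006917 (242 CPM), mmu_circ_0006915 (229 CPM), the exon 11 to 12 circRNA (156 CPM) and mmu_circ_0006916 (152 CPM). The last 3 were mmu_circ_0006913 (117 CPM), mmu_circ_0006905 (108 CPM) and mmu_circ_0006914. Ranges over the libraries of neighbours in this order overlapped throughout. The circRNA mmu_circ_0006919 led in 3 libraries, mmu_circ_0006917 in 2 and mmu_circ_0006915 in 1. The leading share lay between 20% (Wilson 95% interval 12.1 to 31.3%) and 37.6% (28.5 to 47.8%) of the summed CPM of all Fer circRNAs. These intervals cover counting error only. When overlapping circRNAs of a strand are joined into loci, 26 of 2511 loci hold at least 7 circRNAs. The 7 overlapping Fer circRNAs form 1 of them, and mmu_circ_0006905 stands alone. The leading circRNA took 28.7% of the mean CPM of these 7, without mmu_circ_0006905. This was the 5th lowest leading share of the 26, whose median was 36.7% and whose range was 17.5 to 92.0%.

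The circRNAs that end at exon 14 made up most of the locus. The abundant short ring of exons 12 to 14, mmu_circ_0006919, had 302 and 847 CPM on day 0, 459 and 223 CPM on day 4, and 220 and 284 CPM on day 8. The day 0 libraries differed most, with 13 and 35 inferred reads, whose exact Poisson 95% intervals (6.92 to 22.2 and 24.4 to 48.7 reads) did not overlap. Both day 8 values lay below both day 0 values, and day 4 overlapped both days. The longer ring of exons 11 to 14, mmu_circ_0006917, had 325 and 145 CPM on day 0, 372 and 371 CPM on day 4, and 98.0 and 142 CPM on day 8. Its day 4 values lay above all others. Its day 8 values lay below all others in CPM, but day 0 replicate 2 and day 8 replicate 2 both held 6 inferred reads.

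The other rings closed by exon 14 were less abundant. The ring of exons 9 to 14, mmu_circ_0006916, had 209 and 242 CPM on day 0, 0 and 124 CPM on day 4, and 122 and 213 CPM on day 8, so that both day 4 values lay below both day 0 values. The ring from the Fer-202 exon to exon 14, mmu_circ_0006914, had 0 and 145 CPM on day 0, 109 and 74.3 CPM on day 4, and 98.0 and 0 CPM on day 8. Its libraries overlapped between all days. The 4 circRNAs together took 58.3% of the inferred Fer reads. Their share of the summed CPM was 62.1% and 61.3% on day 0, 61.4% and 64% on day 4, and 61.1% and 41.5% on day 8. In 5 libraries it stayed within 3 percentage points, and day 8 replicate 2 stood below.

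The circRNAs that end at exon 3, 11 or 12 followed no common course. The ring of exons 9 to 11, mmu_circ_0006915, had 209 and 436 CPM on day 0, 175 and 149 CPM on day 4, and 98.0 and 308 CPM on day 8. Day 4 lay below day 0, and day 8 spanned most of the range. The exon 11 to 12 circRNA had 69.6 and 96.9 CPM on day 0, 241 and 248 CPM on day 4, and 0 and 284 CPM on day 8. Day 4 lay above day 0, while day 8 held both the lowest and the highest value. The ring from the Fer-202 exon to exon 11, mmu_circ_0006913, had 139 and 96.9 CPM on day 0, 175 and 0 CPM on day 4, and 147 and 142 CPM on day 8. Its day 8 values lay between the day 4 values and just above both day 0 values in CPM. Day 0 replicate 1 and both day 8 libraries held the same 6 inferred reads. The ring of exons 1 to 3, mmu_circ_0006905, had 92.8 and 242 CPM on day 0, 0 and 49.5 CPM on day 4, and 98.0 and 166 CPM on day 8, so day 4 was lowest.

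**Figure D2:**
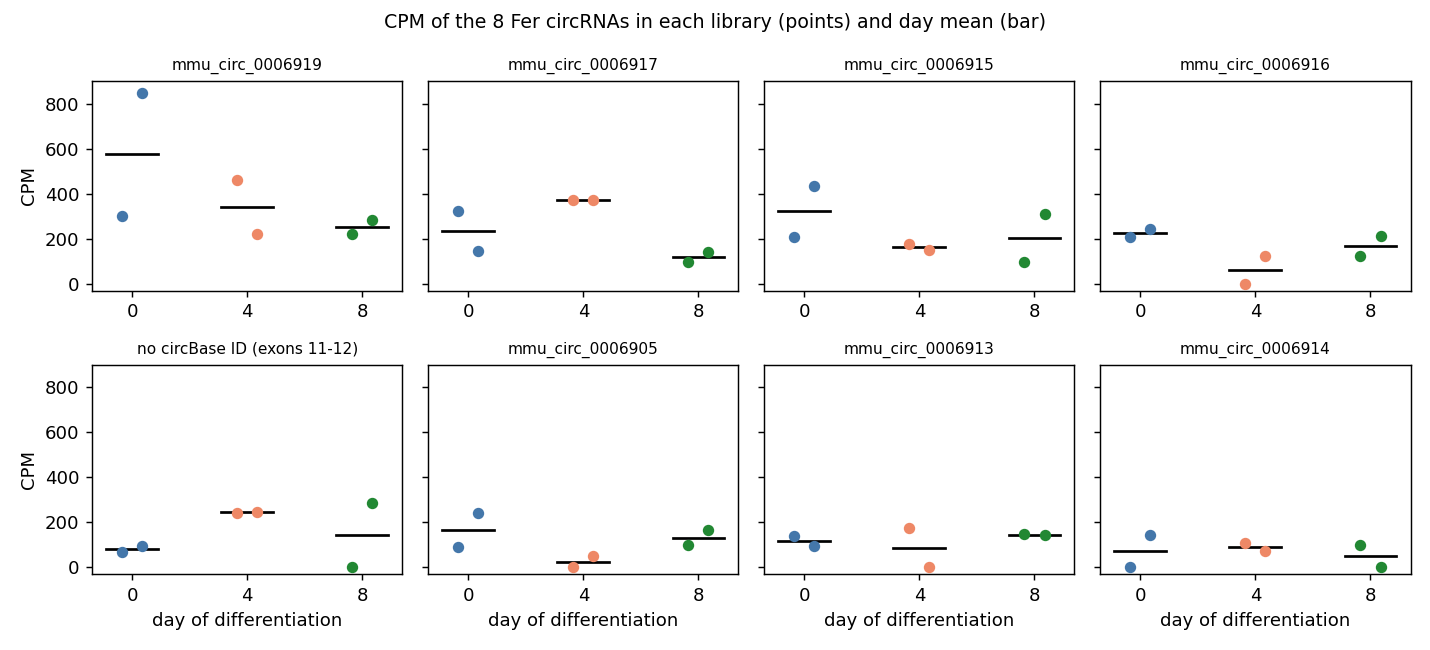
CPM (y axis) of each Fer circRNA by day of differentiation (x axis). Points are the 2 libraries of a day and the bar is their mean. For mmu_circ_0006919 the day 0 libraries (302 and 847 CPM) span more than the days differ, and for mmu_circ_0006917 the day 4 libraries (372 and 371 CPM) lie above the other 4.

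Grouped by start, the balance of the isoforms looked different on day 4. The circRNAs that start at exon 11 summed to 394 and 242 CPM on day 0, 612 and 619 CPM on day 4, and 98.0 and 426 CPM on day 8. Their share of the Fer sum was 29.3% and 10.8%, then 40% and 50%, then 11.1% and 27.7%, so both day 4 libraries lay above the other 4. The circRNAs that start at exon 9 had shares of 31.0% and 30.1% on day 0, 11.4% and 22% on day 4, and 25% and 33.8% on day 8, so both day 4 libraries lay below the other 4. Those that start at the Fer-202 exon had 10.3% and 10.8%, then 18.6% and 6%, then 27.8% and 9.23%, and their mean CPM was 191 ± 72.8 on day 0, 179 ± 148 on day 4 and 194 ± 72.7 on day 8 (SD, n = 2). The shares of a library add to 100%, so they do not move independently. This grouping was singled out after the values were seen and was not tested. How often shares by start separate in this way at other loci was not counted.

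The sum of the 8 circRNAs was 1346 and 2252 CPM on day 0, 1531 and 1238 CPM on day 4, and 882 and 1540 CPM on day 8. These sums rest on 58 and 93, 70 and 50, and 36 and 65 inferred reads. The means were 1799 ± 641 CPM on day 0, 1384 ± 207 CPM on day 4 and 1211 ± 465 CPM on day 8 (SD, n = 2). The days overlapped in every pairing, and the libraries of day 0 and of day 8 differed among themselves by more than the day means did. The log2 ratio of the means was -0.38 for day 4 over day 0, -0.57 for day 8 over day 0 and -0.19 for day 8 over day 4. Without day 0 replicate 2 the ratio of day 4 over day 0 was 0.04, and without day 8 replicate 1 that of day 8 over day 4 was 0.15. The highest day mean was 1.51 times the lowest for the 7 overlapping circRNAs, and 17 of the 26 loci with at least 7 circRNAs had a larger ratio (median 1.91).

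**Figure D3:**
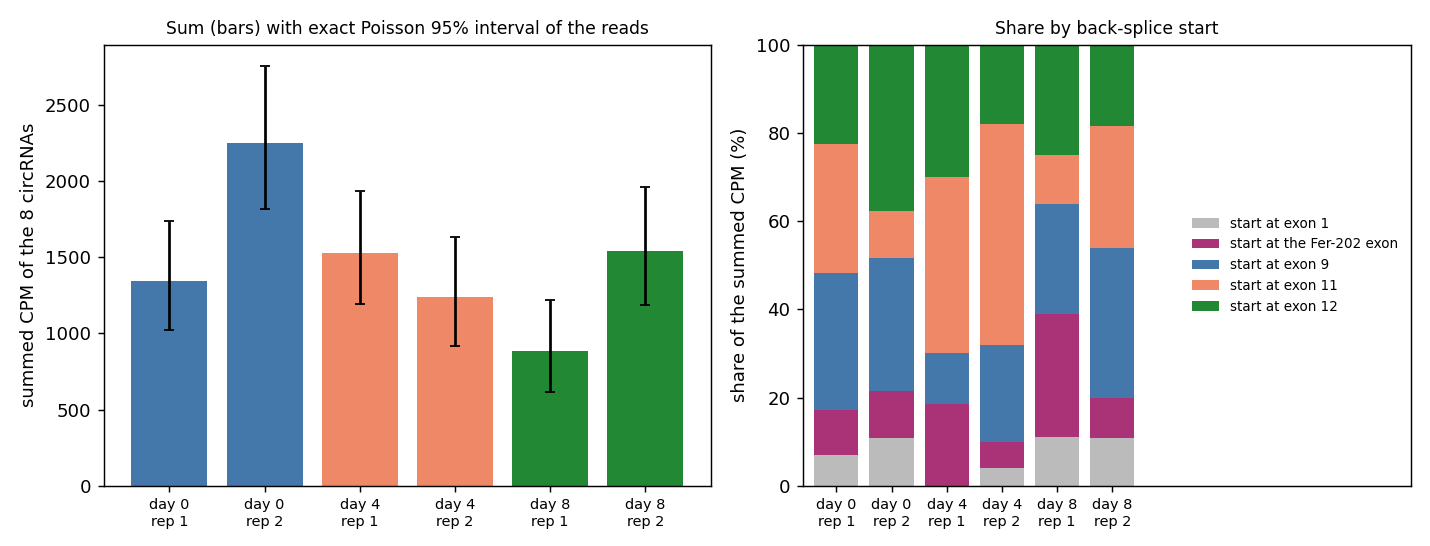
Left, the summed CPM of the 8 Fer circRNAs in each library (bars, coloured by day) with the exact Poisson 95% interval of the inferred reads; the day 0 libraries stand at 1346 and 2252 CPM and the day 8 libraries at 882 and 1540 CPM. Right, the share of that sum by back-splice start, in percent, with exon 11 starts at 40% and 50% in the day 4 libraries.

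None of the 8 circRNAs was called between any 2 days. A circRNA was called when its limma adjusted p was under 0.05, from a fit of all 3869 circRNAs on log2(CPM + 43.7), where 43.7 CPM is the smallest value above 0. From day 0 to day 4 the fit called 0 of 8 Fer circRNAs and 8.17% of the table. From day 0 to day 8 it called 0 of 8 and 12.4% of the table, and from day 4 to day 8 it called 0 of 8 and 9.49% of the table. At an unadjusted limma p under 0.05 the counts were 0, 0 and 1 of 8, against 22.0%, 25.4% and 21.9% of the table. The lowest adjusted p from limma was 0.322 from day 0 to day 4, 0.456 from day 0 to day 8 and 0.181 from day 4 to day 8. Against a background this low, 0 of 8 does not set Fer apart.

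Most intervals were wide and did not settle the direction of change. The circRNA with an unadjusted p under 0.05 was mmu_circ_0006917, with a log2 fold change of -1.32 from day 4 to day 8 (SE 0.48, 95% interval -2.49 to -0.15, limma adjusted p = 0.181). From day 0 to day 4 its log2 fold change was 0.70 (interval -0.48 to 1.87). For mmu_circ_0006919 the log2 fold change from day 0 to day 8 was -0.83 (-2.29 to 0.64). From day 0 to day 4, mmu_circ_0006916 had -1.63 (-3.61 to 0.36), mmu_circ_0006905 had -1.61 (-3.57 to 0.36) and the exon 11 to 12 circRNA had 1.22 (-1.34 to 3.78). From day 0 to day 8 all 8 fitted values lay between -0.83 and 0.31, and from day 4 to day 8 between -1.32 and 1.48. The intervals reached a median of 1.97 log2 units to either side of the estimate, so the estimates are imprecise.

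**Figure D4:**
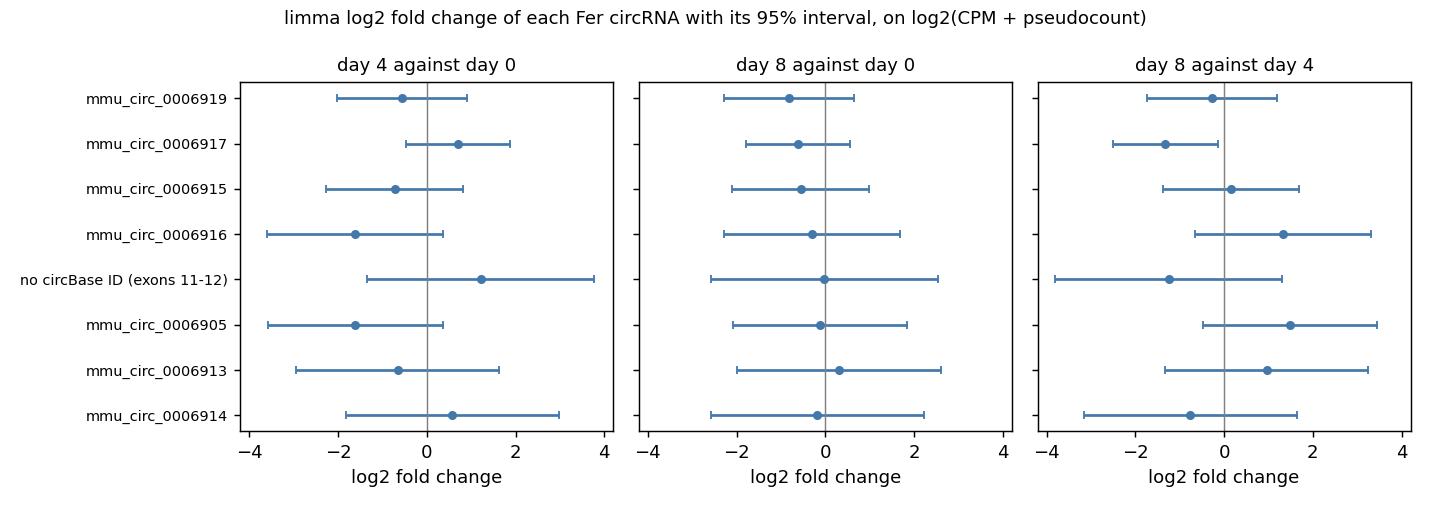
Log2 fold change of each Fer circRNA (x axis, on the log2(CPM + 43.7) scale) in the 3 comparisons between days. Points are limma estimates and bars 95% intervals; the interval of mmu_circ_0006917 for day 8 against day 4 (-2.49 to -0.15) is the one that leaves out 0.

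Directions were mixed from day 0 to day 4 and mostly negative from day 0 to day 8. Positive fitted values were found for 3 of 8 circRNAs from day 0 to day 4, where 46.9% of all circRNAs were positive, with a median of -0.61 against 0 for the table. From day 0 to day 8, 1 of 8 was positive against 51.9%, with a median of -0.24 against 0.05. From day 4 to day 8, 4 of 8 were positive against 54.1%, with a median of -0.06 against 0.06. The libraries of the 2 days did not overlap for 5 of 8 circRNAs from day 0 to day 4, and for 46.2% of the table. The same held for 3 of 8 against 51.2% from day 0 to day 8 and for 2 of 8 against 46.5% from day 4 to day 8. From day 0 to day 8, mmu_circ_0006917 and mmu_circ_0006913 separated in CPM only. Each had a day 0 and a day 8 library with the same 6 inferred reads. Such ties were not counted in the rest of the table. The Fer counts lie on either side of that background. The 3 comparisons share libraries and are not independent.

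The interval has clear margins. No listed circRNA crossed its edges or lay inside it on the minus strand. The nearest on the plus strand, mmu_circ_0000803 (chr17:64973868-64974791, mean 1154 CPM), began 586854 bp beyond the last Fer end. The nearest on the minus strand, mmu_circ_0006922 (chr17:64636342-64642365, mean 86.9 CPM), lay 249328 bp beyond it.

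Loci with a similar profile were sought among the 571 other loci that were above 0 in all 6 libraries and had a mean sum of at least 366 CPM. By Pearson's r with the Fer sum over 6 libraries on the log2 scale, the highest was a locus of 2 circRNAs on chromosome 4 (8499673 to 8509640, plus strand) with r = 0.907. Its sums were 859 and 1186 CPM on day 0, 634 and 446 CPM on day 4, and 343 and 711 CPM on day 8. The second lay on chromosome 18 (r = 0.865) and the third was a locus of 9 circRNAs on chromosome 7 (140139727 to 140165306, plus strand, r = 0.832). All 3 shared with Fer a high day 0 replicate 2 and a low day 8 replicate 1. These are the largest of 571 values over libraries that share depth and day, and they are given as a description.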

How the data were processed

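Ribosomal and linear RNA were removed from total RNA to enrich circRNAs, per the labels' protocols. FastQC 0.11.9, HISAT2 2.2.0 and mm9 are named in the submitters' processing notes, without roles (circRNA caller: not given in the sources used here). In the deposited table the authors give 1 CPM column per library, and starts in it count from 0 (printed from 1). Reads were inferred from the CPM grid, whose values were whole multiples of 1 step within 2.52e-07 of a step. Limma 3.58.1 in R 4.3.3 fitted all 6 libraries with a mean-variance trend on TMM-scaled log2(CPM + 43.7), with Benjamini-Hochberg adjustment over 3869 circRNAs. The fit was tested on simulated data. Only the more abundant circRNAs were given changes there, so it does not show how changes at low read counts are recovered. All 8 circRNAs of the interval are named, by rule. The members, lists and rules were chosen with earlier results of these data known. A list of FER partners was not analysed, since no table of the mm9 build pairs circRNAs with genes. Sums and shares use CPM as deposited. Alternatives were other scalings, pseudocounts, filters, fits and left-out libraries.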

Additional observations from a re-analysis of the deposited data

How the results depend on the processing

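The count of called Fer circRNAs was 0 in limma for all 3 comparisons under each of 13 alternatives (scalings, pseudocounts, filter, fits of 4 libraries, replicate block and left-out libraries), with at most 1 of the Fer circRNAs tested at an unadjusted p under 0.05 (16.1 to 27.0% of all circRNAs tested) and a lowest adjusted p of 0.0963 to 0.436 for day 8 against day 4. The filter of at least 10 inferred reads in 2 libraries kept 4 of the 8. It raised the share of mmu_circ_0006919 from 30.0% to 44.4% at day 0 and from 21.7% to 40.4% at day 8, because fewer circRNAs share the sum. Over the whole table, this filter left 1368 circRNAs and 50, 89 and 14 calls in place of 316, 480 and 367 (day 4 against day 0, day 8 against day 0 and day 8 against day 4), and a fit without the day 8 libraries called 37 in place of 316; the cause of the latter was not tested. With 1 library left out at a time, the log2 ratio of the Fer sums ranged from -0.70 to 0.04 for day 4 over day 0, from -1.03 to -0.15 for day 8 over day 0 and from -0.65 to 0.15 for day 8 over day 4. A left-out library leaves 1 for its day, which is assumed to vary like the others. With the replicate number as a block the Fer count stayed 0. Deviations of same-numbered libraries from their day means showed almost no correlation (r across circRNAs of -0.0136, -0.00671 and -0.00705). Counting error is large in such deviations, so these values cannot show whether the numbers pair libraries. An edgeR test on the inferred reads was not run, since no library has an entry of 1 read.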
